A study of Mus musculus with 20 samples.

Results

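The perineuronal net and nodal matrix genes are 10 genes chosen by symbol, of 19269 in the count table. They encode the link proteins Hapln1, Hapln2 and Hapln4, the lecticans Acan, Bcan, Ncan and Vcan, the tenascins Tnr and Tnc, and the receptor phosphatase Ptprz1. All 10 were found, and all 10 passed the low-count filter in each comparison. RNA came from preoptic area punches of female mice, and each pool held 3 to 4 mice. The study pulled down ribosomes by a GFP tag on ribosomal protein L10a, which a GnRH-Cre driver turns on in GnRH neurons, the cells that start the reproductive hormone cascade. Each pull-down gave an immunoprecipitate (IP) and a supernatant, which holds the tissue RNA left after the pull-down.

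Of 20 libraries, 6 were IP and 14 were supernatant. The adult groups were aged 70 to 150 days and in diestrus, and the young groups were aged 21 days. Among the new pools, 1 adult pool carried GnRH-Cre and floxed L10a-GFP and was GFP-positive. The negative controls, without tagged ribosomes, were 2 adult pools with GnRH-Cre only and 3 young pools, of which pools 1 and 2 were wild type and pool 3 was floxed L10a-GFP only. No genotype was shared by adult and young new pools. Age and genotype therefore cannot be told apart within the new pools, nor within the negative pools among them. Supernatants of 4 prior pools with both alleles (2 adult, 2 young) came from an earlier collection and were sequenced in a first set and again, beside the new pools, in a second set. The labels used here do not state the prenatal treatment of the prior pools. They call the negative pools biological replicates. In the age comparison of supernatants, with 1 library per pool, p-values measure the spread between pools. The main fit of IP over supernatant took the IP and supernatant of a pool as separate libraries, without a term for the pool. Between sequencing sets the pool is a term, so those p-values measure the spread of repeat sequencing of the same RNA.

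Perineuronal nets are lattices of hyaluronan, lecticans, link proteins and tenascin-R around the cell body and proximal dendrites of certain neurons. Lecticans are chondroitin sulfate proteoglycans that hold hyaluronan at one end, where a link protein locks the bond, and bind tenascins at the other. A related matrix surrounds the nodes of Ranvier of myelinated axons. Nets mature late in postnatal life.

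The link protein genes lie beside lectican genes. On mm10, Hapln2 (chr3:88021750-88027583, minus strand) lies 21519 bases from Bcan (chr3:87987531-88000230, minus strand). Hapln4 (chr8:70083457-70090862, plus strand) lies 2222 bases from Ncan (chr8:70093085-70120873, minus strand). Hapln1 (chr13:89539796-89611652, plus strand) lies 43659 bases from Vcan (chr13:89655312-89742509, minus strand), and Acan (chr7:79053483-79115099, plus strand) lies 2 bases from Hapln3, which is not among the 10. The other members stand apart, with Tnr at chr1:159523769-159931729 (plus strand), Tnc at chr4:63959785-64047015 (minus strand) and Ptprz1 at chr6:22875502-23052916 (plus strand). Annotated genes on the opposite strand share exon sequence with Tnr and Tnc, and without a stated strand setting of the counting the reads of both strands may not be separated there.

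The promoter windows of Hapln2 and Bcan are shown because Hapln2 had the largest called age difference among the members and Bcan is its same-strand neighbour. Each window runs from 250 bases before to 50 bases after a RefSeq transcript start (GRCm38.p6, which is mm10), at chr3:88027462-88027761 for Hapln2 and chr3:88000307-88000606 for Bcan. Both are read on the minus strand, 5′ to 3′, and capitals mark a CCAAT box or a GC box (GGGCGG, which appears as CCGCCC when it lies on the other strand).
Hapln2: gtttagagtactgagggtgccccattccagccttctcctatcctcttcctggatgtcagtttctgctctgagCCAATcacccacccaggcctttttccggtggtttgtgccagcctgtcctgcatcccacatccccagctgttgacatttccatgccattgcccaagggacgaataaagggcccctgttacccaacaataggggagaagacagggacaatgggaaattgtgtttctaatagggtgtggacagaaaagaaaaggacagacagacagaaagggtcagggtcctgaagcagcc
Bcan: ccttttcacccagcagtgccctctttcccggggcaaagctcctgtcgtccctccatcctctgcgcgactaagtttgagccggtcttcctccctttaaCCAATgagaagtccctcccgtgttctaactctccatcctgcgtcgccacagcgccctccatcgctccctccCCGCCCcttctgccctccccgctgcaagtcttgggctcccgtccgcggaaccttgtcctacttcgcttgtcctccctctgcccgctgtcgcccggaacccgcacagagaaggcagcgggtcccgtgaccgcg
Besides CCAAT and GGGCGG, the letters TATAAA and ACAAAG (a SOX core) were searched on both strands. Hapln2 held 1 CCAAT at position -178 from the start and none of the other 3 motifs. Bcan held 1 CCAAT at -153 and, on the opposite strand, 1 GC box at -82. Of 32851 windows of the same length, 37.4% held CCAAT, 35.7% GGGCGG, 18.7% ACAAAG and 13.6% TATAAA, so these matches are common. G and C made up 52.0% of the Hapln2 window and 64.0% of the Bcan window, against a median of 52.7% over all windows. RefSeq windows were matched for 9 of the 10 members, all but Hapln4.

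Total counts ran from 34404677 to 49638015 per IP library and from 27745296 to 50517581 per supernatant library. The 10 genes together took 0.0248% to 0.0366% of the counts in IP libraries and 0.0149% to 0.0286% in supernatants. Levels below are counts-per-million values (CPM) scaled by trimmed mean of M values, and 3 counts, the limit that a count of 0 allows, stood at 0.0588 to 0.109 CPM depending on the library, a limit that covers counting error only. As a check of the tag, the GFP-positive IP held 1457 CPM of Gnrh1 and the 5 negative IPs held 7.85 to 33.5 CPM. The supernatant of the GFP-positive pool held 27.3 CPM of Gnrh1, against 28.2 and 24.8 CPM in the adult negative supernatants. Its supernatant thus showed no loss of Gnrh1. The series text in one place names adult negative supernatant 1 as GFP-positive, and the sample labels were followed. In whole tissue, fewer cells of a type and less RNA per cell cannot be told apart.

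Per length, Bcan had the highest mean of the members over the 10 supernatants counted once per pool (5 adult, 5 young, second set for the prior pools). It averaged 19.9 ± 2.26 CPM per kb of transcript (SD, n = 10). Hapln4 followed at 15.7 ± 3.09, Hapln2 at 8.60 ± 6.05, Ptprz1 at 3.16 ± 0.872 and Ncan at 2.89 ± 0.699 CPM per kb. A gap then separated Ncan from Hapln1, at 0.661 ± 0.304 CPM per kb, with Ncan above Hapln1 in 10 of 10 libraries and ranges that did not overlap. Tnr had 0.473 ± 0.111, Vcan 0.303 ± 0.116, Tnc 0.0978 ± 0.0540 and Acan 0.0372 ± 0.0278 CPM per kb. Every other pair of neighbours in this order had overlapping ranges. Bcan was above Hapln4 in 8 of 10 libraries. Hapln4 was higher in adult prior pool 3, at 21.2 against 20.1 CPM per kb of Bcan, and in adult prior pool 4. The order of the means differed between the ages for 2 pairs whose ranges overlapped. Hapln1 averaged 0.461 CPM per kb in adult pools, below Tnr at 0.494, and 0.861 in young pools, above Tnr at 0.452. Ptprz1 stood above Ncan in the adult mean and below it in the young mean. Acan, the lectican taken as the core of cortical nets, was near the detection limit here, with 1 to 21 counts in each of these 10 libraries.

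**Figure D1:**
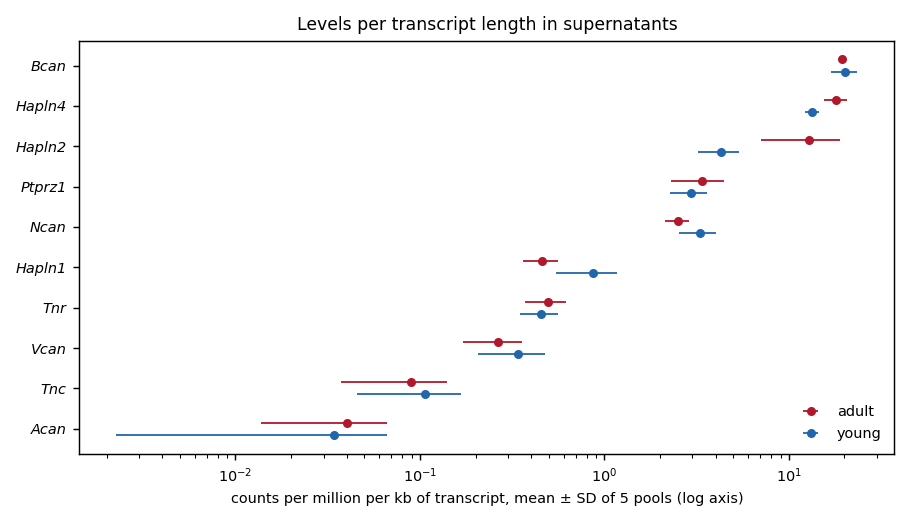
Levels per transcript length in the 10 supernatants, as mean ± SD of 5 adult and 5 young pools for each gene, in CPM per kb of transcript on a log axis. Bcan, Hapln4 and Hapln2 lead, and Acan and Tnc are lowest at both ages.

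The age comparison asked how these genes differ between adult and young preoptic tissue. Among link proteins, Hapln2 and Hapln4 rose and Hapln1 fell in adult supernatants, while no lectican, tenascin or Ptprz1 passed the test. Of 10 members, 2 rose and 1 fell, beside 4.16% of all 15537 genes tested that rose and 5.6% that fell (edgeR quasi-likelihood test with pool origin as a term, adjusted p under 0.05). The median log2 difference of the members was 0.02, against 0.00 for all genes tested.

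Hapln2, the link protein of nodes of Ranvier, had 23.8 and 39.0 CPM in adult negative pools 1 and 2, 15.7 in the GFP-positive pool and 15.6 and 16.3 in adult prior pools 3 and 4. It had 9.20, 6.57 and 9.40 CPM in young negative pools 1 to 3, and 5.91 and 5.61 in young prior pools 1 and 2. All 5 adult pools lay above all 5 young pools, and both adult negative pools, which carry GnRH-Cre only, lay above the other 3 adult pools. The log2 difference was 1.57 ± 0.21 (SE), a 2.97-fold higher level (adjusted p = 0.000724). Leaving out 1 library at a time gave 1.34 to 1.71, and every such fit called it. Within the new pools alone, where age and genotype change together, it was 1.66 (adjusted p = 0.0225). Within the prior pools alone, which carry both alleles at both ages, it was 1.47, short of the threshold (adjusted p = 0.0606).

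Hapln4, the link protein that partners Bcan in nets of hindbrain and other subcortical nuclei, had 58.6 and 55.4 CPM in adult negative pools 1 and 2, 65.5 in the GFP-positive pool and 77.3 and 72.5 in adult prior pools 3 and 4. Young pools had 49.7, 45.1 and 44.2 CPM in negative pools 1 to 3, and 49.8 and 55.1 in prior pools 1 and 2. The ages did not overlap in these libraries, though the adult minimum and the young maximum differed by less than 1 CPM. In the first set, young prior pools 1 and 2 had 55.9 and 62.7 CPM, above adult negative pool 2. Adult prior pools 3 and 4 had 99.2 and 94.7 CPM in that set. Those first-set libraries are not in the test. The log2 difference was 0.42 ± 0.08, or 1.34-fold (adjusted p = 0.00494), and it missed the threshold in the new pools alone (0.38, adjusted p = 0.0795) and in the prior pools alone (0.51, adjusted p = 0.235).

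Hapln1, the link protein of cortical nets, had 2.07 and 2.82 CPM in adult negative pools 1 and 2, 3.53 in the GFP-positive pool and 2.54 and 2.21 in adult prior pools 3 and 4. It had 3.64, 4.02 and 7.69 CPM in young negative pools 1 to 3, and 3.52 and 5.75 in young prior pools 1 and 2. The groups met at the GFP-positive adult pool and young prior pool 1, and the other 4 adult pools were lower than every young pool. The log2 difference was -0.92 ± 0.26 (adjusted p = 0.0416), close to the threshold. Leaving out 1 library gave -1.03 to -0.69, and the call held in 3 of 10 such fits, those without the GFP-positive pool, young negative pool 1 or young prior pool 1. It ended without any of the other 7 libraries (adjusted p up to 0.115, without adult negative pool 1), without the origin term (adjusted p = 0.0700), in the new pools alone (-0.87, adjusted p = 0.215) and in the prior pools alone (-0.97, adjusted p = 0.402).

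Of the lecticans, Bcan, which is made by astrocytes and oligodendrocyte precursors, had 58.0 to 63.5 CPM in the 5 adult pools (median 61.9) and 50.3 to 74.3 CPM in the 5 young pools (median 64.1). Its log2 difference was -0.06 ± 0.11 (adjusted p = 0.772), and the adult values lay within the young range. Ncan, a lectican best known from the growing brain, had 13.9 to 21.1 CPM in adult pools (median 17.8) and 16.4 to 31.1 CPM in young pools (median 22.6), a log2 difference of -0.39 ± 0.15 that missed the threshold (adjusted p = 0.117) but passed it without adult prior pool 3 (adjusted p = 0.0354). Vcan, whose splice forms include the versican of nodes, differed by -0.39 ± 0.31 (adjusted p = 0.481), with 1.31 to 4.14 CPM in adult pools against 2.87 to 6.13 in young pools. Acan differed by 0.56 ± 0.64 (adjusted p = 0.641) on counts too few to place it.

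Tnr, the tenascin that crosslinks lecticans in nets, had 6.02 ± 1.51 CPM in adult pools and 5.51 ± 1.28 CPM in young pools (SD, n = 5 each; log2 difference 0.11 ± 0.20, adjusted p = 0.793). Tnc, its glial relative, had 0.216 to 1.20 CPM in adult pools and 0.134 to 1.24 in young pools (-0.33 ± 0.57, adjusted p = 0.770). Ptprz1, a receptor phosphatase whose secreted form is the proteoglycan phosphacan, had 20.5 to 42.1 CPM in adult pools and 20.0 to 33.3 in young pools (0.17 ± 0.15, adjusted p = 0.542). For these 3 the ages overlapped almost fully, and an SE of 0.57 leaves even a large change of Tnc undetected.

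**Figure D2:**
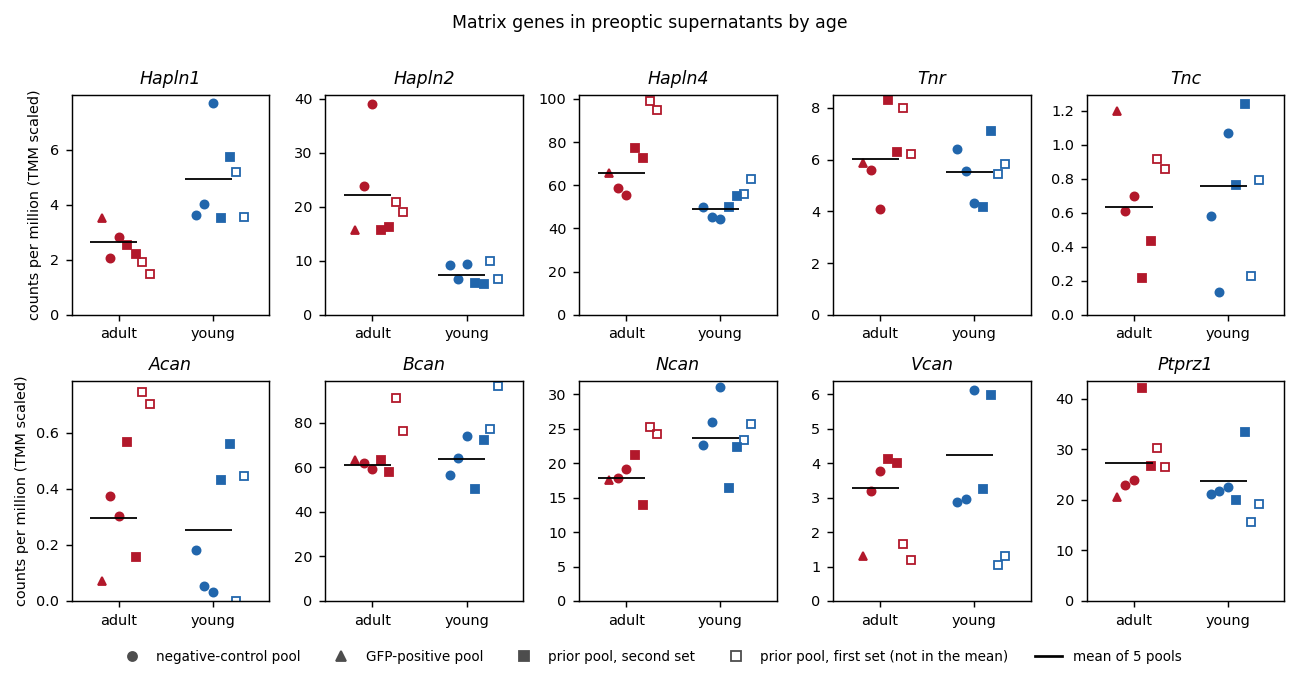
CPM of each member in every supernatant library, adult pools left of young pools, with symbols for pool origin and lines at the mean of 5 pools (first-set libraries, open squares, are not in the mean). Over the libraries in the means, Hapln2 and Hapln4 separate the ages, Hapln1 nearly does, and the other 7 overlap. With the first-set libraries, Hapln4 overlaps too.

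Hapln2 rose, while no marker of either oligodendrocyte stage was called as higher. Beside the marker counts below, 4.16% of all genes tested rose and 5.6% fell. Of 12 mature oligodendrocyte markers, 4 fell and none rose (edgeR; median log2 difference -0.50), among them Mobp (-1.54 ± 0.16, adjusted p = 0.000133) and Cnp (-0.86 ± 0.13, adjusted p = 0.00157), both myelin proteins. Their summed level was 2606 to 5606 CPM in adult pools and 4612 to 7087 CPM in young pools, and all 12 were tested. Among adult pools, this sum was 3556 to 5606 CPM in the 2 negative pools, where Hapln2 was also highest. It was 2936 CPM in the GFP-positive pool and 2606 to 2718 CPM in the 2 prior pools. Of 12 precursor markers, 5 fell and none rose, with Gpr17, a receptor of committed precursors, at -1.60 ± 0.13 (adjusted p = 1.78e-05). The precursor sum was 425 to 617 CPM in adult pools and 665 to 831 in young pools, without overlap. Fibroblast and meningeal markers, which track what the punch includes, varied from 377 to 4355 CPM in adult pools and from 67.6 to 1598 CPM in young pools, with none of 10 called. Of 12 microglia markers, 5 rose and none fell (median log2 difference 0.40), with a summed level of 80.1 to 157 CPM in adult pools and 63.5 to 115 CPM in young pools. Of 12 pan-neuronal markers, 1 rose and 4 fell, among them Stmn2, a neuronal growth protein (-0.53 ± 0.06, adjusted p = 0.000400). Of 11 progenitor and immature neuron markers tested, 3 fell and none rose. The part of these cell types in the changes of Hapln1, Hapln2 and Hapln4 was not tested.

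Of 92 other genes of the net pathway tested, in 5 lists, 10 rose (10.9%) and 2 fell (2.17%), beside the 4.16% of all genes that rose and the 5.6% that fell. Of 17 other net and matrix proteins tested, 3 rose and none fell, one being Sparcl1, an astrocyte-secreted matrix protein (0.39 ± 0.09, adjusted p = 0.0133). Of 21 chondroitin sulfate enzymes 1 rose, and of 18 receptors and ligands 1 rose. Of 19 proteases, hyaluronidases and inhibitors, 3 rose and 1 fell: Adamts4, a protease that cleaves lecticans, had 8.83 ± 0.862 CPM in adult pools and 16.3 ± 3.66 in young pools (SD, n = 5 each; log2 difference -0.89 ± 0.16, adjusted p = 0.00489). Of 17 node and axon initial segment genes, 2 rose and 1 fell, with Cntn2, an adhesion molecule beside the node, at 30.5 ± 8.32 CPM in adult pools and 17.6 ± 2.81 in young pools (0.78 ± 0.17, adjusted p = 0.0141).

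Because each link protein lies next to a lectican, the log2 ratio of the pair within a library was compared between ages, a comparison chosen after the values of Hapln2 and Bcan were seen. The pairs were looked at because of those values, so they are described without a test. Over Bcan, Hapln2 averaged -1.56 ± 0.596 in adult pools and -3.12 ± 0.389 in young pools (SD, n = 5 each), a difference of 1.55 with every adult library above every young one. Since Bcan itself differed by only -0.06, this ratio restates the difference of Hapln2. Hapln4 over Ncan averaged 1.87 ± 0.315 in adult pools and 1.06 ± 0.425 in young pools, a difference of 0.81, although adult negative pool 2, at 1.53, lay below young prior pool 1, at 1.59. Within the new pools alone the first pair differed by 1.62 and the second by 0.90, and within the prior pools by 1.45 and 0.67. Hapln1 over Vcan differed by -0.46, and by -0.77 with the first sequencing set of the prior pools. Hapln3 over Acan differed by -1.23, by 0.21 in the prior pools alone and by -2.44 with the first set, so neither its size nor its direction was stable.

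**Figure D3:**
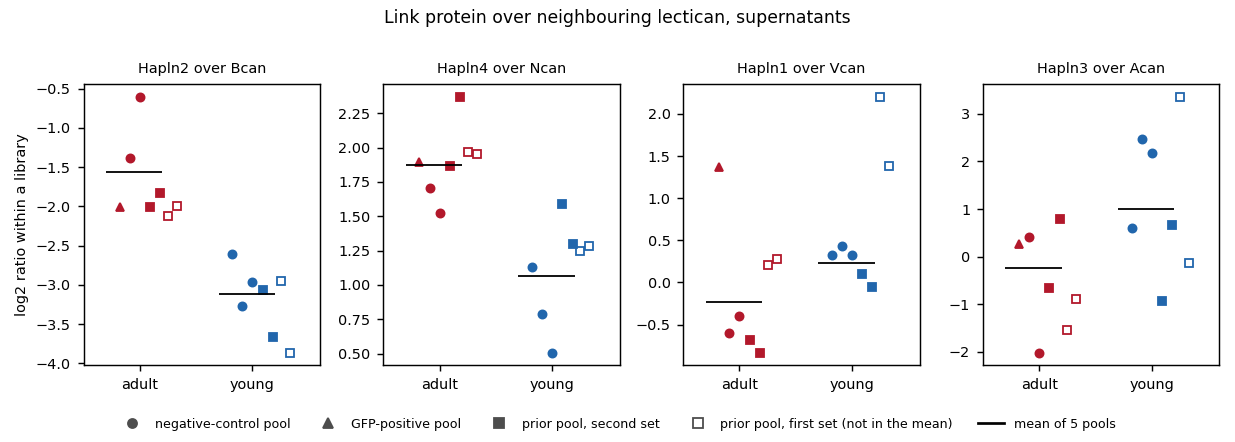
Log2 ratio of a link protein over its neighbouring lectican within each supernatant library, adult left of young, with lines at the mean of 5 pools and open squares for the first sequencing set. The adult libraries lie above the young ones for Hapln2 over Bcan, nearly so for Hapln4 over Ncan, and overlap them for the other 2 pairs.

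Across the 10 supernatants, which share the age difference, Hapln1 varied most like Ncan among the members (Pearson r = 0.762, n = 10) and against Hapln4 (r = -0.665), given as a description only. Among 9516 well-expressed genes, the pattern of Hapln2 was closest to Evi2a (r = 0.968), Mlc1 (r = 0.965) and Car2 (r = 0.963). That of Hapln4 was closest to Gabra3 (r = 0.969), a GABA-A receptor subunit, and that of Hapln1 to Ust (r = 0.962), a sulfotransferase that acts on chondroitin and dermatan sulfate. Ptprz1 was closest to Adam22 (r = 0.962) and Tnr to Tmem150c (r = 0.951).

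The negative pools show which RNAs came down without a tag. Ptprz1, Hapln4 and Bcan were higher in IP than in supernatant, and no member was lower (edgeR; none was lower at an unadjusted p under 0.05 or by DESeq2). The 3 of 10 stood beside 15.8% of all 16361 genes tested that were higher and 16.2% that were lower. The members' median log2 difference was 0.70, against -0.03 for all genes tested. Summed over the 10 genes, the level was 235 to 356 CPM in negative IPs and 173 to 209 CPM in their supernatants.

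Ptprz1 had 50.3 and 63.7 CPM in adult negative IPs 1 and 2 and 52.4, 45.8 and 55.2 CPM in young negative IPs 1 to 3, against 22.9 and 23.9 CPM in adult and 21.1, 21.7 and 22.5 CPM in young supernatants. Every IP lay above every supernatant, and the ratio within a pool was 2.11 to 2.67. The log2 difference was 1.23 ± 0.13 (adjusted p = 8.2e-05). It was called at both ages, with 1.27 ± 0.20 in adults (adjusted p = 0.00374) and 1.19 ± 0.16 in young mice (adjusted p = 0.000564), but both calls ended with the trend on transcript length removed (0.56, adjusted p = 0.116, in adults and 0.41, adjusted p = 0.0919, in young mice). The adult call also ended without adult negative supernatant 1 (adjusted p = 0.0743).

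Hapln4 had 90.2 and 74.5 CPM in adult negative IPs 1 and 2 and 105, 61.6 and 125 CPM in young negative IPs 1 to 3, against 58.6 and 55.4 CPM in adult and 49.7, 45.1 and 44.2 CPM in young supernatants. All IP libraries were higher than all supernatants, and the young IPs spread more widely than the young supernatants. The log2 difference was 0.77 ± 0.18 (adjusted p = 0.00720), with 0.51 ± 0.27 in adults (adjusted p = 0.273) and 1.02 ± 0.22 in young mice (adjusted p = 0.00672).

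Bcan had 88.6 and 92.2 CPM in adult negative IPs and 131, 74.0 and 89.0 CPM in young negative IPs 1 to 3, against 61.9 and 59.3 CPM in adult and 56.7, 64.1 and 74.3 CPM in young supernatants. Each pool's IP was above its own supernatant, by 1.15 to 2.30 times, but young IP 2 and young supernatant 3 overlapped. The log2 difference was 0.55 ± 0.16 (adjusted p = 0.0217), and the call ended without either adult IP, either adult supernatant, or young supernatant 1 or 2 (adjusted p up to 0.0920).

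The other members were not called. Hapln1 was higher in IP within all 5 pools (ratios 1.22 to 2.04; log2 difference 0.63 ± 0.41, adjusted p = 0.297). Hapln2 (0.34 ± 0.28, adjusted p = 0.408) and Ncan (0.46 ± 0.23, adjusted p = 0.155) were each higher in 4 of 5 pools, and Ncan passed without young IP 3 (adjusted p = 0.0213). Vcan had 18.1 and 11.5 CPM in adult negative IPs and 1.51, 2.68 and 10.5 CPM in young ones, against 2.87 to 6.13 CPM in the supernatants (1.16 ± 0.55, adjusted p = 0.146), and it passed without young IP 1 (adjusted p = 0.0467). Tnr averaged 14.4 ± 1.98 CPM in the 2 adult negative IPs (SD) and had 0.666, 2.37 and 17.1 CPM in young ones, against a median of 5.58 and a highest value of 6.40 CPM in the 5 supernatants (0.90 ± 0.70, adjusted p = 0.383). Both stood high in the adult negative IPs and in young IP 3, the floxed L10a-GFP pool, and low in young IPs 1 and 2, the wild-type pools. The GFP-positive adult IP, which carries both alleles, had 0.476 CPM of Vcan, below every negative IP, and 7.49 CPM of Tnr. A part of genotype in this was not tested.

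The rare members were erratic in IP. Acan had 339 and 43 counts in adult negative IPs 1 and 2 and 0, 0 and 26 counts in young IPs 1 to 3, against 19, 10, 5, 2 and 1 counts in the supernatants of the same pools. A single library, adult IP 1, thus holds most of its counts (log2 difference 2.43 ± 1.35, adjusted p = 0.211). Tnc had 0 and 85 counts in adult negative IPs and 0, 22 and 21 counts in young ones, with 5 to 35 counts in each supernatant (-0.09 ± 1.36, adjusted p = 0.976). The SD of log2 CPM over the 3 young IPs was 2.27 for Tnr, 1.40 for Vcan and 0.14 for Ptprz1, against a median of 0.42 over all tested genes.

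**Figure D4:**
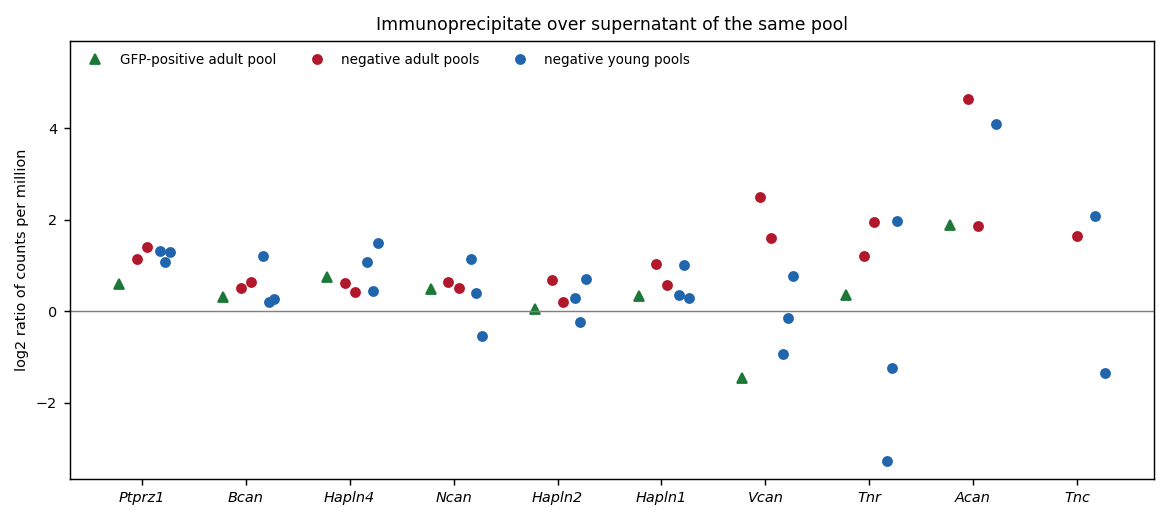
Log2 ratio of CPM in the IP over the supernatant of the same pool for each member, with the GFP-positive adult pool, negative adult pools and negative young pools from left to right within a gene (pools with a 0 in either library have no point). Ptprz1 lies between 1.08 and 1.42 in all 5 negative pools, while Vcan, Tnr, Acan and Tnc scatter widely.

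Long transcripts stood higher in the negative IPs, and most members are long. Among genes with a mean log2 CPM of at least 3, the median log2 difference was -0.46 in the shortest of 4 equal classes by transcript length, -0.05 and 0.18 in the middle classes and 0.64 in the longest, which starts at 4825 bases. Ptprz1 (8068 bases) and 6 further members fall in that length range, while Hapln4 has 3648 bases, Bcan 3141 and Hapln2 1711. With the length trend removed, Ptprz1 stood at 0.49 (adjusted p = 0.0155), Hapln4 at 0.69 (adjusted p = 0.0171) and Bcan at 0.56 (adjusted p = 0.0253), so all 3 kept their call over both ages, beside 10.5% of all genes that were higher and 10.5% that were lower in that fit. Ncan and Tnr changed sign, to -0.18 and -0.11.

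By age, 2 members were higher in young negative IPs (13% of all genes were) and 1 in adult ones (6.39% of all genes were). No member's IP difference was shown to depend on age: of the tested genes 0% passed the test of age by fraction in edgeR, where 1068 genes had an unadjusted p under 0.05 but no member did, and DESeq2 called 118 genes. Between adult and young negative IPs, where 0.727% of genes were called in either direction, no member passed in edgeR, 2 (Hapln2 and Acan) had an unadjusted p under 0.05, and DESeq2, which called 7.85% of genes there, called 1, Hapln2. Hapln2 had 38.1 and 44.8 CPM in adult negative IPs and 11.2, 5.60 and 15.3 CPM in young ones, without overlap (log2 difference 1.98 ± 0.39, adjusted p = 0.0545). It passed without young IP 3 (adjusted p = 0.0324), without young IP 2, and with no filter on low counts (adjusted p = 0.0498), and Acan passed without young IP 3 (adjusted p = 0.0397). The IPs and supernatants of a pool share mice, so this is the same animals' RNA seen a second time.

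Partners of the nets were tested in the same IP comparison, in which 15.8% of all genes were higher and 16.2% lower (10.5% each with the length trend removed). Of 17 node and initial segment genes, 10 were higher and none lower, led by Ank3 (1.59 ± 0.14, adjusted p = 2.86e-05), the ankyrin that anchors sodium channels, and Kcna1 (1.49 ± 0.16, adjusted p = 8.64e-05), a juxtaparanodal potassium channel. With the length trend removed, 2 of the 17 were higher, Ank3 (0.71, adjusted p = 0.00232) and Kcna1 (1.34, adjusted p = 0.000262), and 2 were lower. Of 18 receptors and ligands, 10 were higher and none lower, including the adhesion molecule L1cam (1.40 ± 0.21, adjusted p = 0.000564) and the semaphorin receptor Plxna4 (1.13 ± 0.17, adjusted p = 0.000591). With the length trend removed 3 of the 18 were higher, and Plxna4 was no longer called (0.097, adjusted p = 0.744). Of 21 chondroitin sulfate enzymes, 6 were higher and none lower, with Chst15 at 1.44 ± 0.29 (adjusted p = 0.00321) and Chsy1 at 1.32 ± 0.21 (adjusted p = 0.000998), and 5 were higher with the length trend removed. Of 18 other matrix proteins, the precursor proteoglycan Cspg4 was higher (1.71 ± 0.41, adjusted p = 0.00875) and Cspg5 lower (-0.35 ± 0.11, adjusted p = 0.0298). With the length trend removed Cspg4 lost its call (0.96, adjusted p = 0.112) and Cspg5 stood at -1.07 (adjusted p = 8.31e-05). Of 19 proteases and inhibitors, 4 were higher and 1 lower, and Tmem2, a cell-surface hyaluronidase, led at 1.79 ± 0.20 (adjusted p = 0.000108). With the length trend removed, 3 of the 19 were higher and none lower. Oligodendrocyte markers were summed at 3064 to 7976 CPM in negative IPs and 3556 to 7087 CPM in supernatants, and astrocyte markers at 1204 to 2212 CPM in negative IPs and 1553 to 1760 CPM in supernatants. Oligodendrocyte precursor markers were summed at 394 to 782 CPM in negative IPs and 518 to 831 CPM in supernatants. Of 12 markers in each list, 0 oligodendrocyte, 2 astrocyte and 2 precursor markers were higher, and 2, 1 and 2 were lower. Among 12 pan-neuronal markers, 3 were higher and 3 lower. Among 10 parvalbumin-type fast-spiking neuron markers, 5 were higher and 2 lower, or 4 higher and 2 lower with the length trend removed. Kcnc1 was higher (1.72 ± 0.19, adjusted p = 0.000108). Pvalb itself was lower (-1.06 ± 0.16, adjusted p = 0.000806), with a mean of 35.9 CPM in negative IPs and 75.7 CPM in their supernatants. The sum of the list, which also holds Gad1 and Gad2, was 2162 to 2552 CPM in negative IPs and 1582 to 1829 CPM in supernatants, without overlap. Pvalb did not follow this sum. The part of these cell types in the differences of Ptprz1, Hapln4 and Bcan was not tested.

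The prior pools show how far the same RNA moved between sequencing sets. Of 10 members, 2 were higher in the second set and 4 lower (edgeR with pool as a term), beside 15.7% of 15573 genes that were higher and 16.7% that were lower. Vcan had 4.14 and 4.01 CPM in adult prior pools 3 and 4 and 3.26 and 5.99 CPM in young prior pools 1 and 2 in the second set, against 1.66, 1.19, 1.05 and 1.31 CPM for the same pools in the first. It was higher in every pool, by 2.49 to 4.57 times (log2 difference 1.71 ± 0.23, adjusted p = 4.7e-05). Ptprz1 was higher by 0.40 ± 0.11 (adjusted p = 0.0102), with ratios of 1.00 to 1.74, and lost its call without either library of young prior pool 2 (adjusted p up to 0.0993).

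Bcan had 63.2 and 58.0 CPM in adult and 50.3 and 72.4 CPM in young prior pools in the second set, against 91.1, 76.1, 77.4 and 96.5 CPM for the same pools in the first (-0.50 ± 0.06, adjusted p = 1.5e-05). Every second-set library was lower than every first-set library. Ncan (-0.45 ± 0.11, adjusted p = 0.00422), Hapln2 (-0.41 ± 0.12, adjusted p = 0.0157) and Hapln4 (-0.29 ± 0.06, adjusted p = 0.00163) were also lower, each in 4 of 4 pools. The call of Hapln2 ended without either library of young prior pool 1 or the first-set library of adult prior pool 3 (adjusted p up to 0.0724). Hapln1, Acan, Tnr and Tnc were not called. Of the 6 called members, 4 had a larger difference by set than by age: Vcan, Bcan, Ncan (-0.45 by set, -0.39 by age) and Ptprz1 (0.40 by set, 0.17 by age), although the age comparison above uses the second set only. These 6 were picked by the set test, which favours a larger difference by set. Hapln1, Acan, Tnr and Tnc, which it did not call, had smaller differences by set than by age.

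**Figure D5:**
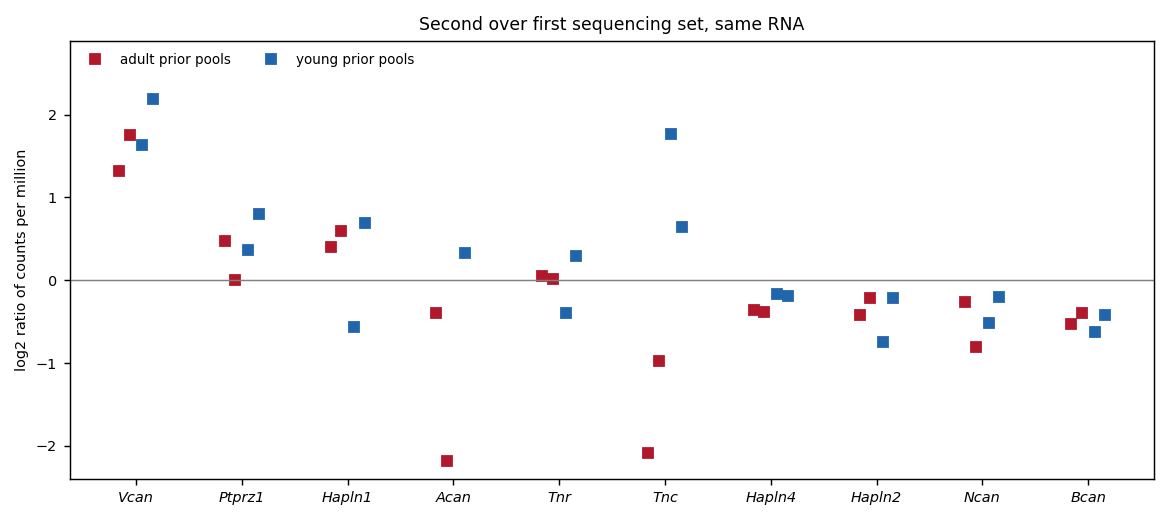
Log2 ratio of CPM in the second over the first sequencing set for the same RNA, by member, with adult prior pools left of young prior pools (a pool with a 0 has no point). Vcan lies above 0 in all 4 pools, and Bcan, Ncan, Hapln2 and Hapln4 lie below 0 in all 4.

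The tagged pull-down was 1 GFP-positive IP, so its edgeR fit takes the spread from the negative libraries. It called 1 gene of 16586 (0.00603%), the 60.3-fold higher Gnrh1, and the absence of members from its calls does not show that they did not differ. Vcan had 0.476 CPM in the GFP-positive IP, against 18.1 and 11.5 CPM in the adult negative IPs (log2 difference -4.91 ± 1.69, adjusted p = 0.938). Ptprz1 had 30.9 CPM in the GFP-positive IP, against 50.3 and 63.7 CPM (-0.84 ± 0.35, adjusted p = 0.938). These 2 had an unadjusted p under 0.05, and DESeq2 called 1 member, Vcan, as lower, beside 0.928% of genes that it called lower. Vcan was also low in the supernatant of the GFP-positive pool, with 1.31 CPM against 3.20 and 3.76 CPM in the adult negative supernatants. Ptprz1 was only slightly lower there, with 20.5 CPM against 22.9 and 23.9 CPM. The ratio of IP over supernatant for Ptprz1 was 1.51 in the GFP-positive pool and 2.11 to 2.67 in the negative pools. For Vcan it was 0.364 in the GFP-positive pool and 0.526 to 5.65 in the negative pools. Hapln4 had 111 CPM in the GFP-positive IP, against 90.2 and 74.5 CPM (0.47 ± 0.41, adjusted p = 0.953), and Bcan had 79.4 CPM, against 88.6 and 92.2 CPM (-0.15 ± 0.36, adjusted p = 1). Hapln2 had 16.4 CPM, against 38.1 and 44.8 CPM (-1.30 ± 0.67, adjusted p = 0.938), and its GFP-positive supernatant, at 15.7 CPM, was likewise below both adult negative supernatants. The GFP-positive IP held 13 counts of Acan, and 0 of Tnc, which allows up to 3 counts.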

How the data were processed

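Polyadenylated RNA of 20 libraries was made into SMARTer v4 libraries, per the labels' protocols. The authors deposited whole-number counts of reads per gene. The build mm10 and the tools HTSeq 0.6.1, TopHat2 2.0.13, DESeq2 1.14.1, Bowtie2 2.2.1, Cuffdiff 2.1.1, FastQC 0.11.3 and Cufflinks are named in the submitters' processing notes, without roles; the annotation and strand setting are not given in the sources used here.

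Members and lists were chosen with earlier results of these data known. From the deposited counts, edgeR 4.0.16 (R 4.3.3) gave the quasi-likelihood test with TMM scaling, filterByExpr at a minimum count of 10, and Benjamini-Hochberg adjustment over all genes tested (threshold 0.05). DESeq2 1.42.0, RLE factors, no filter, a length trend (lowess span 0.3), other pools and leaving out each library were alternatives. Residual degrees of freedom were 6 for the negative pools, 7 for age, 3 for set and 3 for the GFP-positive fit. Errors of log2 differences are SE, derived in edgeR as the absolute log2 difference divided by the square root of the quasi-likelihood F statistic. The script was tested on simulated data.

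CPM used TMM factors over all 20 libraries. Transcript length is that of the longest protein-coding GENCODE vM21 transcript, or of the longest transcript where a gene has no protein-coding one. Lengths were matched for 98.4% of symbols. Pair ratios and correlations used log2(CPM + 0.1). IP and supernatant of the same number were taken as 1 pool. Their deviations from the group means correlated at 0.18 to 0.43 over 10467 genes in the 5 same-number pairs. With 2 adult libraries per fraction, the 2 adult pairs mirror each other and share 1 value (0.21). A young pair of unlike numbers (IP 2 with supernatant 1) reached 0.12, so these correlations cannot establish the pairing. The block changed no member's call. All members were named; of each other list up to 2 genes per direction with the largest called difference, a mean log2 CPM of at least 2 and no overlap of libraries; of like genes the highest correlations.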

Additional observations from a re-analysis of the deposited data

Results flagged for a closer look

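Among the 10 supernatants, 2 values of Ptprz1 stood far from the other pools of their age. Adult prior pool 3 in the second set had 42.1 CPM, and the other 4 adult pools had 20.5 to 26.6 CPM. Young prior pool 2 in the second set had 33.3 CPM, and the other 4 young pools had 20.0 to 22.5 CPM. In the first set the same RNA gave 30.3 CPM for the adult pool and 19.2 CPM for the young pool. Of 20 groups of values examined, 2 held such a sample, and chance gives about 1 in 20.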

How the results depend on the processing

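With the length trend removed, 3441 genes were called in the negative pools, 2636 in young and 908 in adult ones, 1 member was higher in young and 0 in adult pools, and Ncan and Tnr turned to -0.18 and -0.11. DESeq2 called 2897 genes in adult pools, 118 for age by fraction, 1284 with 1 member for adult over young IPs, and 210 with 1 lower member for the GFP-positive IP; without the filter 1 member was higher in adult IPs. For age in supernatants, dropping the origin term called 655 genes and 0 lower members; new pools only called 481 genes with 1 member higher and 0 lower; negative pools only called 8, prior pools only 28 (first set) and 11 (second set), with 0 members. There Acan reached -0.44 in the second-set prior pools, Ncan 0.018 and Vcan 0.28 in the first-set ones, Tnr -0.17 in negative and -0.055 in new pools, and Tnc 0.61 with the first set, 0.13 in negative, 0.49 in new and 0.80 in first-set prior pools. Fewer samples enter these subsets; otherwise the cause was not tested. Of the pairs, Hapln2 over Bcan gave 1.62 in new and 1.45 in prior pools, Hapln4 over Ncan 0.90 and 0.67, and Hapln3 over Acan 0.21 in prior pools and -2.44 with the first set, untested; these subsets were chosen after seeing the data.

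The IP fit with the replicate block gave Ptprz1 1.22, Hapln4 0.74 and Bcan 0.53, all called. Between sets, without the replicate block, 2292 genes, 1 higher and 2 lower members were called, and Tnr stood at 0.0056.

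Leaving out 1 library each time gave 2 to 4 members higher and 3571 to 5725 genes called in negative pools; 2 to 3 higher, 0 to 1 lower and 2842 to 4856 genes in young ones; 0 to 1 higher and 285 to 2398 genes in adult ones; 0 to 67 genes for age by fraction; 0 to 3 members and 0 to 458 genes for adult over young IPs. For age in supernatants it gave 2 higher, 0 to 1 lower and 731 to 1723 genes; between sets 1 to 2 higher, 3 to 4 lower and 3700 to 4783 genes; for the GFP-positive IP 0 to 1 gene. Signs turned within -0.43 to 2.91 for Acan, -0.16 to 1.17 for Tnr and -4.31 to 0.41 for Tnc in IP over supernatant; within -0.13 to 0.025 for Bcan, -0.034 to 0.21 for Tnr and -0.72 to 0.011 for Tnc by age; and within -0.63 to 0.80 for Acan, -0.11 to 0.11 for Tnr and -0.70 to 0.44 for Tnc by set. Depth limits Acan and Tnc, whose counts were under 50 in every supernatant.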
